A study of Mus musculus with 6 samples.

Results

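The astrocyte genes described here are 35 genes listed as typical of astrocytes, the star-shaped glial cells of the brain, of which 34 could be read among 22180 genes measured in hippocampal RNA of 3 Ahr-KO and 3 wildtype mice. They were chosen by name, with earlier results of these data known. For each gene the brightest of the probe sets that the platform annotation pairs with that symbol alone was taken. This left out Plcd4, a phospholipase C, because its only probe set is shared with another symbol. Each array held RNA of 1 mouse. The Ahr-KO mice lack a working Ahr gene, the gene of the aryl hydrocarbon receptor, which switches on its target genes once a ligand has bound, and the wildtype mice carry it. The labels give no treatment, and the sources used here do not state age, strain, which part of the gene is missing or in which cells it is missing.

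Astrocytes clear glutamate and GABA from the space around synapses, turn glutamate into glutamine, buffer potassium and water through end-feet on blood vessels, and are coupled to each other by gap junctions. They supply neurons with lipids and metabolites, and in the hippocampus the stem cells of the dentate gyrus share many of their genes, so that a signal such as Gfap or Sox9 in whole tissue can come from both. The aryl hydrocarbon receptor is present in astrocytes as well as in other brain cells. In whole-tissue RNA, fewer astrocytes and less RNA per astrocyte cannot be told apart.

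Values are log2 signals, in which 1 unit is a doubling, and differences are Ahr-KO minus wildtype with limma's standard error (SE) or 95% interval. The 6 arrays had medians between 5.79 and 5.85 log2. Ahr itself read 6.62, 6.91 and 6.74 on Ahr-KO arrays 1 to 3 and 7.68, 7.50 and 7.44 on wildtype arrays 1 to 3, a difference of -0.78 ± 0.10 (SE) with no overlap. Whether its probes lie in the missing part of the gene is not given in the sources used here. Genes of the choroid plexus, the tissue that makes cerebrospinal fluid, were high on Ahr-KO array 1 and wildtype array 2. The list of 12 measured choroid plexus markers averaged 1.17 and 0.63 log2 above its 6-array mean there and -0.50 to -0.42 on the others, and Ttr, transthyretin, read 13.15, 9.06 and 8.64 on Ahr-KO arrays 1 to 3 and 8.90, 12.64 and 9.03 on wildtype arrays 1 to 3. Differences without both arrays are given beside the genes they moved most, among them Etnppl, Gfap and Cbs. The labels name no batch.

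The 34 astrocyte genes were near the same level in both genotypes. All of them lay above the array median, taken over all probe sets, on all 6 arrays. The dimmest, Itih3, read 6.51 to 7.04 log2, where the median over genes tested of the mean signal was 6.50. The median difference was 0.0012 log2, against 0.0019 over all genes tested, and 17 of the genes had a higher and 17 a lower mean in Ahr-KO. Over the 11090 genes with a mean signal at or above the median gene, which include all 34, the median difference was -0.016 log2. The 95% interval stayed within 0.5 log2 of 0, or 1.41-fold, for 32 of the 34, the exceptions being Fgfr3 and Etnppl.

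**Figure D1:**
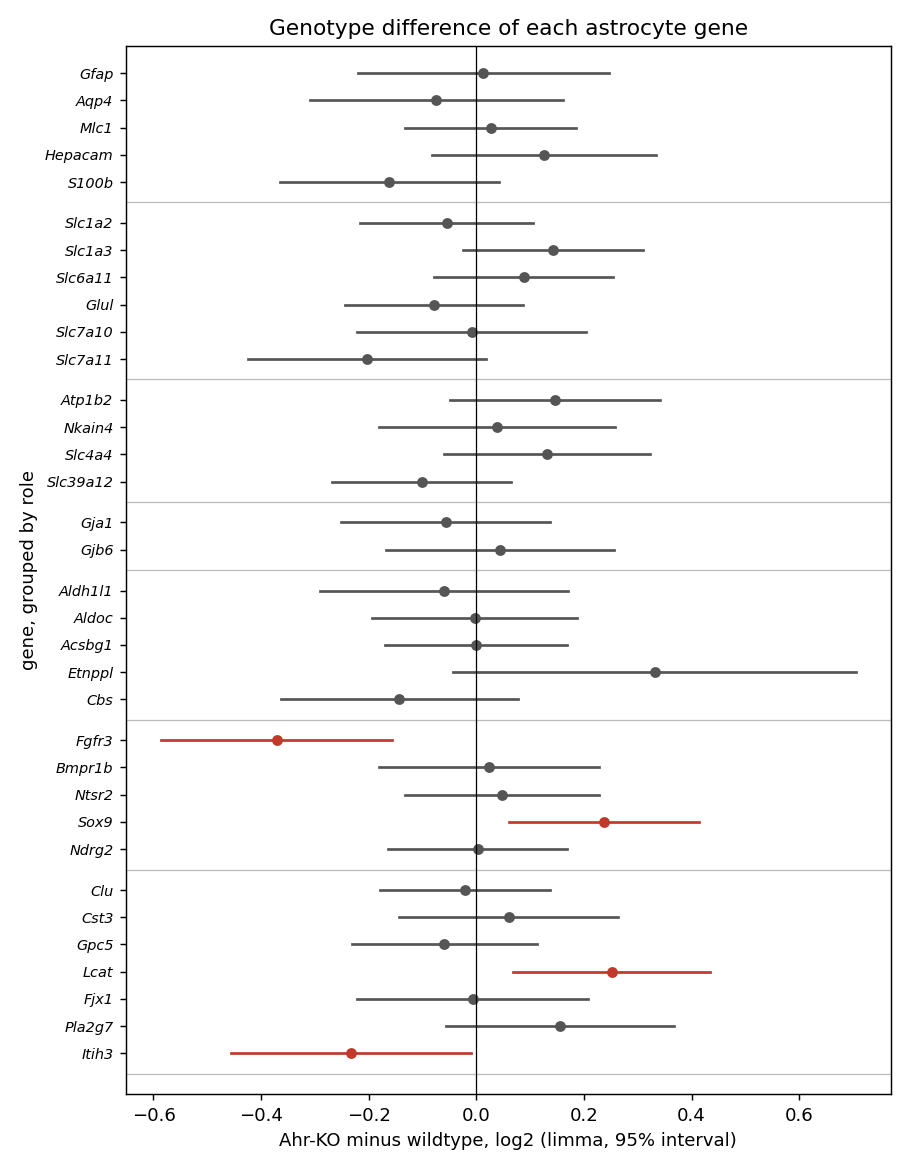
Difference between Ahr-KO and wildtype (x axis, log2) for each of the 34 astrocyte genes (y axis, grouped by role), with limma's estimate as a point and its 95% interval as a bar, 3 arrays per genotype. The intervals of Fgfr3, Sox9, Lcat and Itih3, drawn in red, leave out 0, and those of the remaining genes include it.

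With limma and Benjamini-Hochberg adjustment over all genes, 0 of the 34 passed an adjusted p of 0.05, and their adjusted p ran from 0.769 to 1.000. Over all genes the share that passed was 0%, and an intensity trend in the variance model gave 0 of the 34 and 2 of all genes, or 0.00902%. At an unadjusted p under 0.05, 4 astrocyte genes differed in the limma fit, namely Sox9 and Lcat with higher and Fgfr3 and Itih3 with lower values in Ahr-KO. That is 11.8% of the 34, where 6.18% of all genes had such a p, 3.53% as higher and 2.65% as lower. For 8 of the 34 every Ahr-KO value lay on one side of every wildtype value, 5 higher and 3 lower in Ahr-KO, which is 23.5%, where 11.9% of all genes did not overlap, 6.18% as higher and 5.75% as lower. A mean difference over 0.2 log2 in size was found for 6 of the 34, or 17.6%, and for 10.4% of all genes. Among the 11090 brighter genes, which include all 34, 3.02% were higher and 4.06% lower at an unadjusted p under 0.05 in limma. Of the same genes 5.32% lay higher and 7.53% lower without overlap. No test of these shares against the background was made.

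**Figure D2:**
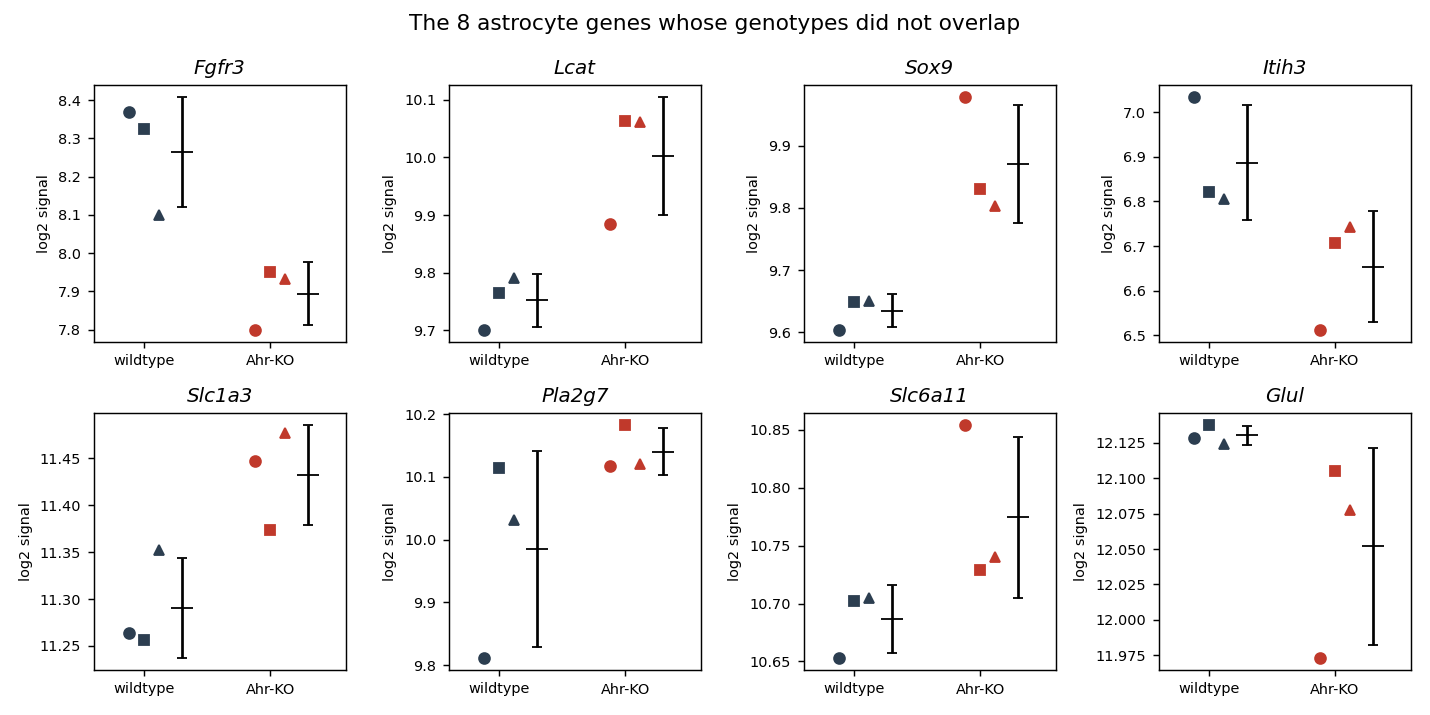
Log2 signal (y axis, a separate range for each gene that does not start at 0) of the 8 astrocyte genes whose genotypes did not overlap, on 3 wildtype and 3 Ahr-KO arrays (circle for mouse 1, square for mouse 2, triangle for mouse 3), with the mean and SD as a bar. Fgfr3, Itih3 and Glul lie lower and Lcat, Sox9, Slc1a3, Pla2g7 and Slc6a11 higher in Ahr-KO, and the gap is narrowest for Pla2g7, where wildtype array 2 reads 10.11 against 10.12 on Ahr-KO array 1.

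Among receptors and regulators, 4 of the 5 genes averaged higher in Ahr-KO. Fgfr3, the exception, is a receptor for fibroblast growth factors that astrocytes and their precursors carry, and it had the largest difference and the lowest p of the 34. It read 7.80, 7.95 and 7.93 on Ahr-KO arrays 1 to 3 and 8.37, 8.32 and 8.10 on wildtype arrays 1 to 3. All 3 Ahr-KO mice lay below all 3 wildtype mice, and wildtype array 3 was the nearest to them. The means were 7.89 ± 0.08 log2 for Ahr-KO and 8.26 ± 0.14 for wildtype (SD, n = 3 each), so that Ahr-KO was 1.29-fold lower (difference -0.37 ± 0.094, SE; limma unadjusted p = 0.0039, adjusted p = 0.769). Without Ahr-KO array 1 and wildtype array 2 the difference was -0.29.

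Sox9, a transcription factor that astrocytes and neural stem cells need to form, went the other way. It read 9.98, 9.83 and 9.80 on Ahr-KO arrays 1 to 3 and 9.60, 9.65 and 9.65 on wildtype arrays 1 to 3. The groups did not overlap, and Ahr-KO array 1, one of those with high choroid plexus genes, was the highest. The means were 9.87 ± 0.09 log2 for Ahr-KO and 9.63 ± 0.03 for wildtype (SD, n = 3 each), so that Ahr-KO was 1.18-fold higher (difference 0.24 ± 0.077, SE; limma unadjusted p = 0.0147, adjusted p = 0.770), and without that array the difference was 0.18 (unadjusted p = 0.0554). It was 0.19 without wildtype array 2 as well. With the mean of the choroid plexus genes as a covariate it was 0.22 (unadjusted p = 0.0194).

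The other regulators differed by less than the spread between mice. Ndrg2, a protein of the N-myc downstream regulated family that is abundant in astrocytes, read 11.80, 11.91 and 11.92 on Ahr-KO arrays 1 to 3 and 11.86, 11.89 and 11.88 on wildtype arrays 1 to 3, and Ahr-KO array 1 was the lowest of all 6. Its difference was 0.0025 (95% interval -0.16 to 0.17). Bmpr1b, a receptor for bone morphogenetic proteins, differed by 0.024 (-0.18 to 0.23) and Ntsr2, a neurotensin receptor, by 0.048 (-0.13 to 0.23).

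The stretch before the start site of Fgfr3 is shown because the mice lack a DNA-binding receptor and Fgfr3 had the lowest p, with Lcat and Itih3 as the other astrocyte genes at an unadjusted p under 0.05 that the table holds and Gja1 as a gene with little difference. The 250 bases before each start site were taken from RefSeq, assembly GRCm38.p6, which matched 29 of the 35 genes, Sox9 not being among them. Capitals mark GCGTG, the core letters of the sequence to which the receptor and its partner ARNT bind, on either strand (CACGC is the same letters read on the other strand).
Fgfr3 (chr5:33721474-33721723, plus strand): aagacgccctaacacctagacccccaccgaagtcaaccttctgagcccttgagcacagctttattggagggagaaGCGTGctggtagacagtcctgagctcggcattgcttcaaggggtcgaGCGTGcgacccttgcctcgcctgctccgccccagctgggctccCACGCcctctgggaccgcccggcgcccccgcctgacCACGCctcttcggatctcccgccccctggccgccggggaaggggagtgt
Lcat (chr8:105943403-105943652, minus strand): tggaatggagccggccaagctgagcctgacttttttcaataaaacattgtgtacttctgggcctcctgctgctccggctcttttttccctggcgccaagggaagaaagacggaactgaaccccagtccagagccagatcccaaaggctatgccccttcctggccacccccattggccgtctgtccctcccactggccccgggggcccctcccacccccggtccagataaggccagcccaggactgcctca
Itih3 (chr14:30923588-30923837, minus strand): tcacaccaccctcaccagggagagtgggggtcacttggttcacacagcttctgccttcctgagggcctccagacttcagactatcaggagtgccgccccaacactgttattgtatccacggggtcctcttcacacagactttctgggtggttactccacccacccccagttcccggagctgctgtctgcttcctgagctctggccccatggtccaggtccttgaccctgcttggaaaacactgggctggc
Gja1 (chr10:56377050-56377299, plus strand): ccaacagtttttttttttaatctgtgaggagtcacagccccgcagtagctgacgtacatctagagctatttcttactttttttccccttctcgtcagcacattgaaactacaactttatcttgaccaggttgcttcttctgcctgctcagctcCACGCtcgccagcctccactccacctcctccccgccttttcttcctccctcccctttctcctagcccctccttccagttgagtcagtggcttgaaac
In this window Fgfr3 held the core 4 times, beginning 175, 128, 85 and 49 bases before the start, with 66.8% G and C against a median of 52.4% over all promoter windows. Of 32851 such windows, of any G and C content, 0.846% held it at least 4 times. The core letters themselves are rich in G and C, and the share among windows of like content was not taken. A further Fgfr3 start in the table held none. Gja1 held 1 match, 97 bases before the start, and Lcat and Itih3 none.

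Over the 29 matched astrocyte genes, 9 (31.0%) held GCGTG in at least 1 window, as did 30.9% of all 27025 genes with a window. The genes were Slc4a4, Gja1, Gjb6, Aldoc, Acsbg1, Fgfr3, Ntsr2, Ndrg2 and Gpc5, and of them Fgfr3 was the one with an unadjusted p under 0.05. The longer form TNGCGTG, which contains the core, was in 0 of the 29 and in 4.76% of all genes. The letters TTCNNNGAA, the pattern to which STAT factors bind, were in 6 of the 29 (20.7%) and in 8.13% of all genes, namely Slc1a3, Slc7a11, Aldoc, Acsbg1, Ntsr2 and Pla2g7. Both strands were searched, and a match describes the letters only.

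Clearance of transmitter is the best known work of astrocytes, and its genes were grouped here with 2 amino acid exchangers. Of the 6 genes of glutamate, GABA and amino acid transport and glutamine synthesis, 2 had a higher and 4 a lower mean in Ahr-KO. The exchangers Slc7a10 and Slc7a11 were among the 4, and 0 of the 6 had a limma unadjusted p under 0.05. Slc1a3, a glutamate transporter of astrocytes and of hippocampal stem cells, read 11.45, 11.37 and 11.48 on Ahr-KO arrays 1 to 3 and 11.26, 11.26 and 11.35 on wildtype arrays 1 to 3. The lowest Ahr-KO array lay just above the highest wildtype array, and the difference was 0.14 (95% interval -0.025 to 0.31) with a limma unadjusted p of 0.0862. Slc1a2, the transporter that takes up most glutamate in the hippocampus, read 10.64, 10.74 and 10.71 on Ahr-KO arrays 1 to 3 and 10.78, 10.75 and 10.72 on wildtype arrays 1 to 3. These overlapped, and the difference was -0.055 (95% interval -0.22 to 0.11). The difference between the 2 transporters was not tested.

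Glul, glutamine synthetase, turns the glutamate taken up into glutamine. It read 11.97, 12.11 and 12.08 on Ahr-KO arrays 1 to 3 and 12.13, 12.14 and 12.12 on wildtype arrays 1 to 3. The 3 wildtype arrays lay close together and all 3 Ahr-KO arrays lay below them, Ahr-KO array 1 by the most. The difference was -0.078 (-0.24 to 0.086), or 1.06-fold, with a limma unadjusted p of 0.306 and adjusted p of 0.886. A second, dimmer Glul probe set differed by 0.20 ± 0.21 (SE), and averaging both turned the sign. Slc6a11, a GABA transporter, read 10.85, 10.73 and 10.74 on Ahr-KO arrays 1 to 3 and 10.65, 10.70 and 10.71 on wildtype arrays 1 to 3. Its groups did not overlap, by a gap of 0.024 log2 between Ahr-KO array 2 and wildtype array 3, and it lost this separation when each array was centred on its median.

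Of the amino acid exchangers, Slc7a11, which imports cystine for glutathione synthesis in exchange for glutamate, had the larger difference. It read 8.66, 8.89 and 8.62 on Ahr-KO arrays 1 to 3 and 8.89, 8.86 and 9.04 on wildtype arrays 1 to 3, and Ahr-KO array 2 lay among the wildtype values. The difference was -0.20 (95% interval -0.42 to 0.019), with a limma unadjusted p of 0.068 (0.0434 with an intensity trend), and without Ahr-KO array 2 it was -0.29 (unadjusted p = 0.0141). At the other end it was -0.15 without wildtype array 3, and 4 of 18 alternative settings gave an unadjusted p under 0.05. Its second probe set, at a mean of 3.94 log2 far below the array medians, differed by 0.13 ± 0.10 (SE). Slc7a10, a carrier of small neutral amino acids such as serine, differed by -0.0090 (-0.22 to 0.20).

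**Figure D3:**
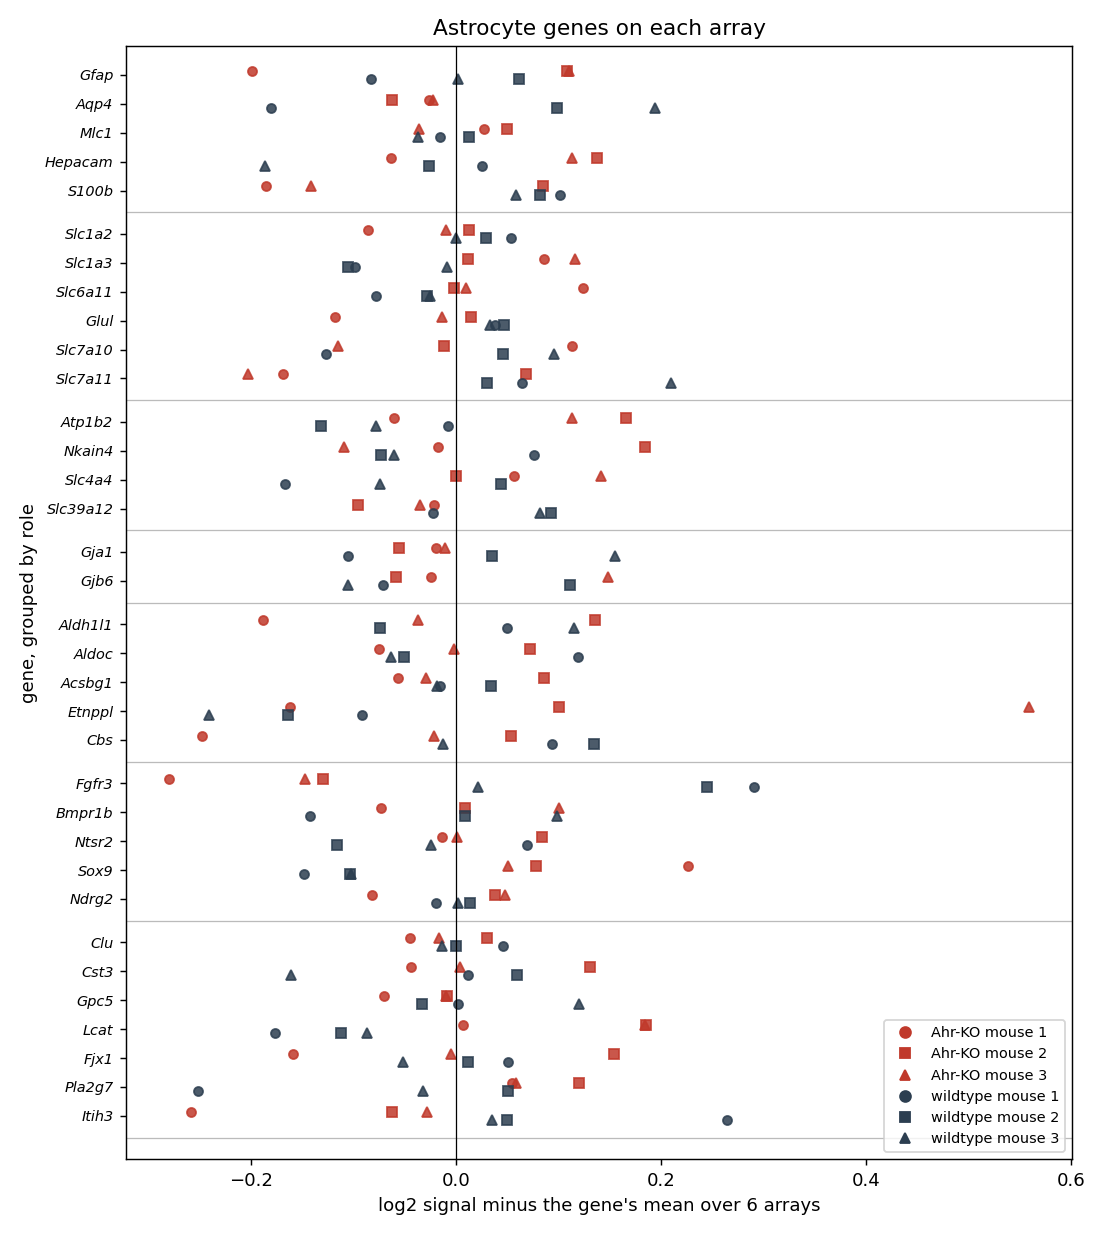
Log2 signal of each astrocyte gene on each array minus the gene's mean over the 6 arrays (x axis), with genes on the y axis grouped by role, Ahr-KO in red and wildtype in dark blue (circle, square and triangle for mouse 1, 2 and 3). Of 204 points 192 lie within 0.2 log2 of the mean, the red circle of Ahr-KO mouse 1 is the lowest point of 14 genes, and Etnppl on Ahr-KO mouse 3 lies farthest out.

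Genes of the filament, end-foot and adhesion group are the ones most used to mark astrocytes, and of the 5 here 3 had a higher and 2 a lower mean in Ahr-KO, with 0 at a limma unadjusted p under 0.05. Gfap, the intermediate filament protein that increases in reactive astrocytes, read 9.70, 10.00 and 10.01 on Ahr-KO arrays 1 to 3 and 9.81, 9.96 and 9.90 on wildtype arrays 1 to 3. Both the lowest and the highest value belonged to Ahr-KO mice, and the difference was 0.013 (95% interval -0.22 to 0.25), or 0.15 without Ahr-KO array 1 and wildtype array 2. Aqp4, the water channel of the end-feet, read 10.07, 10.03 and 10.07 on Ahr-KO arrays 1 to 3 and 9.91, 10.19 and 10.29 on wildtype arrays 1 to 3. The Ahr-KO arrays lay close together inside the wide wildtype range, at a difference of -0.074 (-0.31 to 0.16).

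S100b, a calcium-binding protein, read 8.61, 8.88 and 8.65 on Ahr-KO arrays 1 to 3 and 8.89, 8.87 and 8.85 on wildtype arrays 1 to 3. Ahr-KO arrays 1 and 3 were below wildtype and array 2 was level with it, and the difference was -0.16 (95% interval -0.36 to 0.041) (limma unadjusted p = 0.104). Without Ahr-KO array 2 it was -0.24 (unadjusted p = 0.0161), the 1 of 18 alternative settings with such a p under 0.05. At the other end it was -0.11 without Ahr-KO array 1. Mlc1, a membrane protein of the end-feet, had the smallest range over the 6 arrays of the 34 genes, 0.087 log2, with a difference of 0.027 (-0.13 to 0.19). Hepacam, the adhesion protein that brings Mlc1 to cell junctions, differed by 0.13 (-0.083 to 0.33), and by 0.21 without Ahr-KO array 1 and wildtype array 2.

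Both gap junction genes had overlapping genotypes. Gja1, the main connexin of astrocytes, read 10.58, 10.54 and 10.59 on Ahr-KO arrays 1 to 3 and 10.49, 10.63 and 10.75 on wildtype arrays 1 to 3, and the 3 Ahr-KO arrays lay between wildtype arrays 1 and 2. Gjb6, the second connexin of astrocytes, read 7.09, 7.05 and 7.26 on Ahr-KO arrays 1 to 3 and 7.04, 7.22 and 7.01 on wildtype arrays 1 to 3. Their differences were -0.057 (95% interval -0.25 to 0.14) and 0.043 (-0.17 to 0.26), and without Ahr-KO array 1 and wildtype array 2 they were -0.058 and 0.13.

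Of the 4 genes of ion and metal transport 3 averaged higher in Ahr-KO and 0 had a limma unadjusted p under 0.05, and the genotypes overlapped for all 4. Atp1b2, the glial beta subunit of the sodium pump, read 11.68, 11.91 and 11.85 on Ahr-KO arrays 1 to 3 and 11.73, 11.61 and 11.66 on wildtype arrays 1 to 3. Ahr-KO arrays 2 and 3 were above all wildtype arrays and Ahr-KO array 1 was not, and the difference was 0.15 (95% interval -0.049 to 0.34). It was 0.21 without Ahr-KO array 1 (limma unadjusted p = 0.0392, against 0.124 with it) and 0.099 without Ahr-KO array 2. Of 18 alternative settings 3 gave an unadjusted p under 0.05. Slc4a4, a sodium bicarbonate cotransporter, differed by 0.13 (-0.060 to 0.32), Slc39a12, a zinc importer, by -0.10 (-0.27 to 0.065), and Nkain4, a partner of the sodium pump, by 0.038 (-0.18 to 0.26).

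Of the 5 metabolic enzymes measured 1 had a higher and 4 a lower mean in Ahr-KO, with 0 at a limma unadjusted p under 0.05. Etnppl, which breaks down phosphoethanolamine, varied most of all 34 genes, over 0.80 log2. It read 7.15, 7.41 and 7.87 on Ahr-KO arrays 1 to 3 and 7.22, 7.15 and 7.07 on wildtype arrays 1 to 3. Ahr-KO array 3 stood above the rest and Ahr-KO array 1 was level with wildtype. The difference of 0.33 (95% interval -0.043 to 0.71) rested on that array and was 0.13 without it (limma unadjusted p = 0.256, against 0.0757 with it). On the other side, leaving out Ahr-KO array 1 gave 0.50 (unadjusted p = 0.00792). Without Ahr-KO array 1 and wildtype array 2 it was 0.50 as well (unadjusted p = 0.018).

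Aldh1l1, the folate enzyme widely used to mark astrocytes, read 7.79, 8.11 and 7.94 on Ahr-KO arrays 1 to 3 and 8.02, 7.90 and 8.09 on wildtype arrays 1 to 3, with the lowest and the highest value both in Ahr-KO. Its difference was -0.060 (95% interval -0.29 to 0.17). Aldoc, the brain form of the glycolytic enzyme aldolase, read 11.95, 12.10 and 12.03 on Ahr-KO arrays 1 to 3 and 12.15, 11.98 and 11.97 on wildtype arrays 1 to 3, a difference of -0.0034 (-0.19 to 0.19). Acsbg1, an acyl-CoA synthetase, differed by -0.00018 (-0.17 to 0.17), and Cbs, which makes cystathionine from homocysteine, by -0.14 (-0.36 to 0.077). Ahr-KO array 1 was the lowest of the 6 for Cbs, and the difference was -0.055 without it and -0.024 without wildtype array 2 as well.

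Of 7 secreted and surface proteins 3 had a higher and 4 a lower mean in Ahr-KO, with Lcat on one side and Itih3 on the other at a limma unadjusted p under 0.05. Lcat, the enzyme that esterifies cholesterol on the lipoproteins astrocytes secrete, read 9.88, 10.06 and 10.06 on Ahr-KO arrays 1 to 3 and 9.70, 9.76 and 9.79 on wildtype arrays 1 to 3. All Ahr-KO arrays lay above all wildtype arrays, array 1 by the least. The means were 10.00 ± 0.10 log2 for Ahr-KO and 9.75 ± 0.05 for wildtype (SD, n = 3 each), so that Ahr-KO was 1.19-fold higher (difference 0.25 ± 0.080, SE; limma unadjusted p = 0.0132, adjusted p = 0.770). Without Ahr-KO array 3 the unadjusted p was 0.0509, and leaving out Ahr-KO array 1 and wildtype array 2 gave a difference of 0.32.

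Itih3, a heavy chain of the inter-alpha-trypsin inhibitor, which links to hyaluronan, read 6.51, 6.71 and 6.74 on Ahr-KO arrays 1 to 3 and 7.04, 6.82 and 6.81 on wildtype arrays 1 to 3. Ahr-KO array 1 was the lowest and wildtype array 1 the highest, while Ahr-KO array 3 and wildtype array 3 lay 0.063 log2 apart. The means were 6.65 ± 0.12 log2 for Ahr-KO and 6.89 ± 0.13 for wildtype (SD, n = 3 each), so that Ahr-KO was 1.18-fold lower (difference -0.23 ± 0.098, SE; limma unadjusted p = 0.0428, adjusted p = 0.806). Without wildtype array 1 the difference was -0.16 (unadjusted p = 0.144), and the unadjusted p was 0.146 without Ahr-KO array 1 and 0.0528 without Ahr-KO array 2. Without Ahr-KO array 1 and wildtype array 2 together the difference was -0.20.

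Pla2g7, an enzyme that inactivates platelet-activating factor, read 10.12, 10.18 and 10.12 on Ahr-KO arrays 1 to 3 and 9.81, 10.11 and 10.03 on wildtype arrays 1 to 3. The groups did not overlap, a separation lost when each array was centred on its median, and wildtype array 1 set most of the difference of 0.16 (95% interval -0.056 to 0.37), which was 0.068 without it and 0.23 without Ahr-KO array 1 and wildtype array 2. Cst3, the secreted protease inhibitor cystatin C, read 11.50, 11.68 and 11.55 on Ahr-KO arrays 1 to 3 and 11.56, 11.61 and 11.39 on wildtype arrays 1 to 3, with a difference of 0.060 (-0.14 to 0.26), or 0.14 without Ahr-KO array 1 and wildtype array 2. Its second probe set, at a mean of 7.84 log2, differed by 0.28 ± 0.18 (SE). Clu, the secreted chaperone clusterin, differed by -0.021 (-0.18 to 0.14), the glypican Gpc5 by -0.059 (-0.23 to 0.11) and the secreted kinase Fjx1 by -0.0071 (-0.22 to 0.21).

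Ahr-KO array 1 was low for many of these genes. It was the lowest of the 6 arrays for 14 of the 34 astrocyte genes, or 41.2%, and for 19.9% of all genes. The mean of the 34 genes relative to their 6-array means was -0.060 log2 on this array, 0.048 and 0.022 on the other Ahr-KO arrays and -0.013, 0.0081 and -0.0048 on the wildtype arrays, so the lowest and the highest value were both in Ahr-KO. On Ahr-KO array 1 the 14 measured genes of the oligodendrocyte lineage stood at -0.26, the 12 microglial genes at -0.18 and the 15 neuronal genes at -0.041, while the choroid plexus genes stood at 1.17. With the mean of the choroid plexus genes as a covariate, Lcat, Sox9 and Etnppl were higher and Fgfr3 and Itih3 lower at an unadjusted p under 0.05, where 3.84% and 2.84% of all genes were, and 0 passed the adjusted threshold. The part of the oligodendrocyte, microglial and neuronal genes in the astrocyte values was not tested. Without Ahr-KO array 1 the median difference of the 34 genes was 0.039 log2, and without Ahr-KO array 2 it was -0.039. The count of genes without overlap was 10 higher and 4 lower without the former (11.8% and 10.2% of all genes) and 6 higher and 9 lower without the latter (11.5% and 12.9%).

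**Figure D4:**
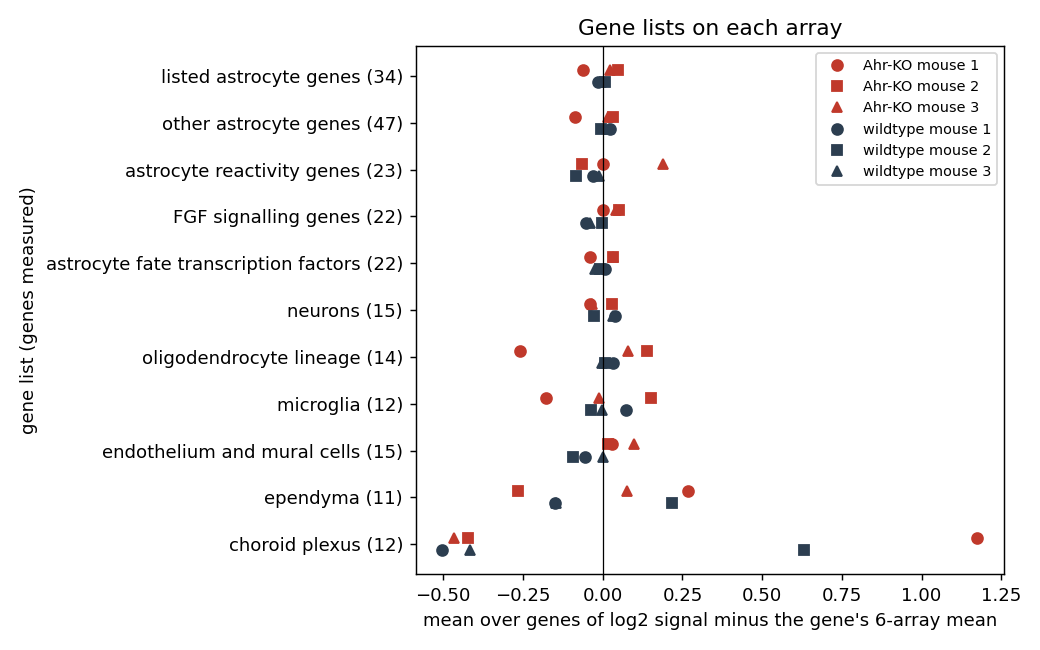
Mean over the genes of a list of the log2 signal minus each gene's 6-array mean (x axis) on each array, for 11 gene lists (y axis, with the number of genes measured), Ahr-KO in red and wildtype in dark blue. The astrocyte genes stay between -0.060 and 0.048, while the choroid plexus genes reach 1.17 on Ahr-KO mouse 1 and 0.63 on wildtype mouse 2.

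Other genes typical of astrocytes gave a like picture. Of 47 measured, 0 passed the adjusted threshold, and at a limma unadjusted p under 0.05 2 had higher and 3 lower values in Ahr-KO (10.6% together, against 6.18% of all genes), with a median difference of -0.028 log2. The lowest p belonged to Gpc4, a glypican that astrocytes release to promote synapses, which read 8.14, 8.18 and 8.36 on Ahr-KO arrays 1 to 3 and 7.83, 7.89 and 7.95 on wildtype arrays 1 to 3, a difference of 0.34 ± 0.085 (SE) without overlap. Lrig1, a negative regulator of growth factor receptors, differed by -0.32 ± 0.091 and Slc25a18, a mitochondrial glutamate carrier, by -0.27 ± 0.084, both without overlap (adjusted p = 0.769 to 0.770 for the 3).

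Genes that reactive astrocytes switch on went in both directions. Of 23 measured, 1 was higher and 1 lower at a limma unadjusted p under 0.05 (8.70% together, against 6.18% of all genes) and 0 passed the adjusted threshold, with a median difference of 0.043 log2. A higher mean in Ahr-KO was found for 14 (60.9%, against 50.7% of all genes). Without overlap 4 lay higher and 2 lower (26.1% together, against 11.9% of all genes). The 3 with the lowest p are described here. Under the array median on all 6 arrays lay 8 of the 23, as did 8378 of the 22180 genes tested. Lcn2, a secreted iron-siderophore binder, read 6.30, 6.42 and 8.63 on Ahr-KO arrays 1 to 3 and 5.70, 5.93 and 5.96 on wildtype arrays 1 to 3, far higher on Ahr-KO array 3 than elsewhere. The difference was 1.25 ± 0.53 (SE). Cd44, a hyaluronan receptor, differed by -0.47 ± 0.15 and was under the array median on 5 of 6 arrays, and Nes, the filament protein nestin, differed by -0.16 ± 0.075. The list as a whole, Lcn2 included, averaged 0.19 log2 above its 6-array mean on Ahr-KO array 3 and -0.083 to 0.00089 on the others. On that array 10 of the 23 genes had their highest value (43.5%, against 14.8% of all genes). Etnppl also peaked on Ahr-KO array 3, where Gfap read 10.01 against 10.00 on Ahr-KO array 2.

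Genes of fibroblast growth factor signalling were included because of Fgfr3. Fgfr3 itself, at -0.37 log2, is not in this list and not in its counts. Of 22 measured, 3 were higher and 0 lower at a limma unadjusted p under 0.05, or 13.6% against 6.18% of all genes, and 0 passed the adjusted threshold. A higher mean in Ahr-KO was found for 16 (72.7%, against 50.7% of all genes), at a median difference of 0.074 log2. The 3 were Spry1 and Il17rd, both feedback inhibitors of the pathway, at 0.30 ± 0.11 and 0.21 ± 0.082 (SE), and the ligand Fgf18 at 0.28 ± 0.11. Spry1 read 7.23, 7.32 and 7.58 on Ahr-KO arrays 1 to 3 and 7.14, 7.14 and 6.95 on wildtype arrays 1 to 3. The other receptors measured, Fgfr1 and Fgfr2, differed by 0.094 (-0.11 to 0.30) and -0.086 (-0.31 to 0.14).

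Transcription factors of the astrocyte fate, counted here without Sox9, split as well. Of 22 measured, 2 were higher and 2 lower at a limma unadjusted p under 0.05 (18.2% together, against 6.18% of all genes) and 0 passed the adjusted threshold, with a median difference of 0.036 log2. Hes5, a Notch target, differed by -0.33 ± 0.096 (SE), Id3, a target of bone morphogenetic proteins, by -0.32 ± 0.099 and Tcf7l1, a factor of the Wnt pathway, by 0.23 ± 0.089. Hes5 read 7.12, 7.14 and 6.84 on Ahr-KO arrays 1 to 3 and 7.40, 7.39 and 7.29 on wildtype arrays 1 to 3, without overlap.

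No marker of other cells in the tissue passed the adjusted threshold. At a limma unadjusted p under 0.05 there were 0 of 15 neuronal, 0 of 12 microglial, 0 of 12 choroid plexus and 0 of 11 ependymal genes, 1 lower of 14 genes of the oligodendrocyte lineage and 3 higher of 15 endothelial and mural genes, where 3.53% of all genes were higher and 2.65% lower. Of the 15 endothelial and mural genes 12 averaged higher in Ahr-KO (80%), where 50.7% of all genes did. So did 11 of the 12 choroid plexus genes and 8 of the 11 ependymal genes. Of the neuronal, oligodendrocyte and microglial genes 6 each averaged higher. The median difference of the choroid plexus genes was 0.24 log2, and 0.035 without Ahr-KO array 1 and wildtype array 2. The mean log2 level of the neuronal list was 10.89 to 10.96 in Ahr-KO and 10.90 to 10.97 in wildtype, and that of the 34 astrocyte genes 9.61 to 9.72 and 9.66 to 9.68. Vwf, the von Willebrand factor of vessels, had the lowest p of these lists at 0.49 ± 0.12 (SE), and the mean log2 level of the endothelial list was 7.59 to 7.67 in Ahr-KO and 7.48 to 7.57 in wildtype. The oligodendrocyte gene was Ermn, a cytoskeletal protein of myelin, at -0.34 ± 0.14.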

How the data were processed

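Hippocampal RNA of 6 mice was measured on 6 Affymetrix whole-transcript arrays, 3 per genotype. The authors deposited a log2 signal for every probe set on every array. RMA and Affymetrix Expression Console, versions unstated, made it per the submitters' processing notes. RMA equalises the arrays' distributions, which removes overall shifts in RNA content and compresses fold changes. The sources used here name no genome build for the probe sets, and no detection calls or scan dates were used.

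Of 41345 rows, 23521 had 1 symbol in the platform annotation, 1814 several and 16010 none. Symbols were updated through Entrez IDs for 23328 rows (RefSeq, GRCm38.p6), and the brightest probe set per gene gave 22180 genes with no filter. The genotypes entered a linear model in limma 3.58.1 under R 4.3.3 (lmFit, then eBayes, two-sided, 4 residual and 4.33 prior degrees of freedom). The fit was checked on simulated data. The members and lists were chosen with earlier results of these data known. All 35 genes are accounted for, values on every array are printed for those at an unadjusted p under 0.05, without overlap, brightest or classical, and up to 3 genes per further list by lowest p. Etnppl, Slc7a11, Fgfr1, Fgfr2 and Spry1's array values were added after their values were seen. An exact permutation test of 3 against 3 cannot go below 0.1, so none is given. Alternatives covered the variance model, weights, normalization, filters, probe sets, a replicate block, symbols, left-out arrays and a choroid plexus covariate. Promoters were read with Python 3.11.15, and figures drawn with matplotlib 3.10.9. The number of arrays limits the precision.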

Additional observations from a re-analysis of the deposited data

How the results depend on the processing

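Under all 18 alternatives 0 of the 34 astrocyte genes passed the adjusted threshold, with a lowest adjusted p of 0.549 with array weights, and the number of genes past it over the whole table was 2 with an intensity trend, robust or not, and 0 otherwise. The count at an unadjusted p under 0.05 was 4 higher and 3 lower with the trend, which added Atp1b2, Slc1a3 and Slc7a11 (3.49% and 3.03% of all genes). Without Ahr-KO replicate 1 and wildtype replicate 2 together Lcat and Etnppl were higher and 1 gene, Fgfr3, lower at an unadjusted p (3.25% and 2.80% of all genes), without Sox9 and Itih3, and 12 did not overlap as higher and 5 as lower, where 18.4% and 16.1% of all genes did. Quantile normalization and median centring each left 3 higher genes without overlap, the former dropping Slc1a3 and Slc6a11 and the latter Pla2g7 and Slc6a11 (5.96% and 6.04% of all genes), and the former added Slc1a2 to the lower ones (4, against 5.86% of all genes). The replicate block left Lcat and Sox9 higher and 1 gene, Fgfr3, lower at an unadjusted p (2.95% and 2.11% of all genes), and no call past the adjusted threshold changed. The labels name separate mice and state no pairing. Deviations from the genotype means of mice with the same number correlated at -0.15, -0.22 and 0.052 across genes. Ahr-KO array 3 correlated best with the wildtype array of its own number, and Ahr-KO arrays 1 and 2 did not. These values show no pairing by number, but with 3 arrays per genotype they cannot exclude one.

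Leaving out each array in turn gave 1 to 3 higher and 1 to 3 lower genes at an unadjusted p (2.88% to 3.72% and 2.12% to 3.64% of all genes), 5 to 10 higher and 3 to 9 lower without overlap (10.1% to 11.8% and 9.60% to 12.9%), and a median difference of -0.039 to 0.039 log2. Differences near 0 changed sign. Over the left-out arrays they ran from -0.039 to 0.12 for Gfap, -0.18 to 0.0037 for Aqp4, -0.075 to 0.046 for Slc7a10, -0.045 to 0.10 for Nkain4, -0.12 to 0.0063 for Gja1, -0.020 to 0.11 for Gjb6, -0.14 to 0.019 for Aldh1l1, -0.040 to 0.055 for Aldoc, -0.043 to 0.028 for Acsbg1, -0.041 to 0.079 for Bmpr1b, -0.021 to 0.044 for Ndrg2, -0.0059 to 0.10 for Cst3 and -0.086 to 0.071 for Fjx1. The sign also turned for Glul with the mean of its probe sets (0.059), for Aldoc with array weights (0.0084), and on quantile normalization for Slc7a10 (0.013), Acsbg1 (0.021), Ndrg2 (-0.033) and Fjx1 (0.0075). Leaving out Ahr-KO replicate 1 and wildtype replicate 2 together turned it for Aldoc (0.0072), Acsbg1 (0.045) and Fjx1 (0.075), and with the choroid plexus covariate for the same 3 (0.010, 0.0038 and 0.011). The cause was not tested. Of the 4 genes at an unadjusted p under 0.05, Fgfr3 kept such a p in 18, Lcat in 17, Sox9 in 16 and Itih3 in 12 of 18 alternatives. None of them changed sign, but their genotypes did not overlap, so leaving out arrays could not turn it. Each has 1 probe set, so averaging probe sets left its values as they were, as did the filters and the symbols as annotated. These counts are therefore not 18 separate checks.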
